A study of Homo sapiens with 36 samples.

Results

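The BAF complex (the mammalian SWI/SNF chromatin remodeller) exchanges several subunits for paralogs as cells become neurons. Expression of 10 genes of that exchange was followed in human neurons induced from the embryonic stem cell line H9. They were ACTL6A, ACTL6B, SMARCA2, SMARCA4, DPF1, DPF2, DPF3, PHF10, SS18 and SS18L1, taken by gene symbol from a table of 62710 genes. Each symbol was found once.

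Induction used doxycycline-driven NGN2, a proneural transcription factor, and RNA was collected on days 0, 3 and 7. Cells were labelled WT, RAI1 Het (RAI1+/-, called HET here) or RAI1 Knockout (RAI1-/-, called KO here), where RAI1 encodes a chromatin regulator. Each of the 9 groups of genotype and day held 4 biological replicates, giving 36 libraries of total RNA depleted of ribosomal RNA. All groups share the H9 background and the NGN2 system, and the labels do not say how many clones stand for a genotype. Medium for the neuronal cultures held GDNF, NT3 and CultureOne, a supplement used against dividing progenitors. Nothing in the labels separates cultures from clones, so the p-values measure the spread between these replicates.

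BAF moves nucleosomes with the ATPase SMARCA4 (BRG1) or its paralog SMARCA2 (BRM), of which a complex carries one. Complexes of neural progenitors contain the actin-like subunit ACTL6A (BAF53a), the PHD-finger subunit PHF10 (BAF45a) and SS18. In postmitotic neurons ACTL6B (BAF53b), DPF1 (BAF45b), DPF3 (BAF45c) and SS18L1 (CREST) take those places, while DPF2 (BAF45d) is present in many cell types. In progenitors the repressor REST holds down the microRNA genes miR-9 and miR-124, and miR-9-3p (also called miR-9*) and miR-124 act on the ACTL6A transcript.

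The microRNA arm and its matches in ACTL6A are shown because they are the best known sequence link between the regulators and the subunit exchange. The 22-base mature human miR-9-3p (RefSeq, GRCh38.p14) is given with its seed, bases 2 to 8, in capitals. Below it stand the 2 places in the ACTL6A 3′ UTR that hold the 7-base complement of that seed, AGCTTTA, in capitals, each with 15 bases before it.
hsa-miR-9-3p: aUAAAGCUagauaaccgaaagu
ACTL6A chr3:179588044-179588065 (+): caccttacgtttcatAGCTTTA
ACTL6A chr3:179588133-179588154 (+): acttaaattttttaaAGCTTTA
Both matches lie in all 3 ACTL6A transcripts of GENCODE 29 (GRCh38) with an annotated stop codon in the last exon. They begin 49 and 138 bases after the stop codon, in UTRs of 388 to 398 bases. Such a match is a description of letters, and mature microRNAs were not measured in these libraries.

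The 250 bases before the transcription start of ACTL6B, the subunit that rose most, and of DPF3, the subunit that differed most between genotypes on day 3, are shown with every E-box in capitals. The E-box (CANNTG, read on both strands) is the short element bound by factors of the NGN2 class. Sequences are from RefSeq on GRCh38.p14, on the strand of the gene.
ACTL6B chr7:100656449-100656698 (-): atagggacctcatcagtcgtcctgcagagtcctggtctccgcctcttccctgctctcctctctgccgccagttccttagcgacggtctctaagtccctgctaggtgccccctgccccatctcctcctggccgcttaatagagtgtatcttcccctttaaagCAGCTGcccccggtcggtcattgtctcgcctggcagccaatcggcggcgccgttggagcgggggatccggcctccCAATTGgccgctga
DPF3 chr14:72894102-72894351 (-): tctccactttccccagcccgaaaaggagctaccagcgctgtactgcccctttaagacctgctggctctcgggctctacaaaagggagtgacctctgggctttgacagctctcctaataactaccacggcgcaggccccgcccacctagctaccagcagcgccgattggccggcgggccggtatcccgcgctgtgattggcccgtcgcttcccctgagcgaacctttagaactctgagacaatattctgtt
ACTL6B held 2 E-boxes, beginning 89 and 14 bases before the start, and the first is of the form CAGCTG. DPF3 held none in this window, which says only that these letters are absent from it. Of 15 windows found for 9 of the 10 genes (ACTL6A had none), 7 held an E-box, against 61.8% of all 35116 windows of that length. CAGCTG, a form of the E-box and so counted within it, stood in 1 of the 15 and in 14.0% of all windows. The other E-box forms searched, CAGATG and CATATG, each stood in 1, against 12.2% and 2.63%. The parts of the REST site searched, CAGCACC and GGACAG, stood in 1 and 3 of the 15, against 6.16% and 17.2%.

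On the same build the genes lie on chromosomes 3 (ACTL6A), 7 (ACTL6B), 9 (SMARCA2), 19 (SMARCA4 and DPF1), 11 (DPF2), 14 (DPF3), 6 (PHF10), 18 (SS18) and 20 (SS18L1), and all 10 are protein coding. ACTL6A overlaps the opposite-strand gene MRPL47 and PHF10 overlaps C6orf120. Antisense genes also overlap ACTL6A, SMARCA2, SMARCA4, DPF3 and PHF10, and the use of strand in counting was not given in the sources used here.

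Library totals ran from 23.9 to 56.7 M counts, and levels below are CPM, counts relative to the library total after TMM, edgeR's correction for library composition. Small structural RNAs (5 genes) took 4.02 to 6.45% of day 0 libraries and 2.84 to 27.5% of day 7 libraries, the highest being HET day 7 replicate 1. On day 7 that share ran at 14.5 to 25.6% in WT, 2.84 to 27.5% in HET and 9.9 to 15.8% in KO. RAI1 itself ran from 22.2 to 107 CPM and was not lower in HET or KO than in WT on any day (day 7 means 52.4 CPM in WT, 73.3 CPM in HET, 84.6 CPM in KO), so its level does not check the labels. The neuronal label fitted the summed level of 8 neuron markers, which rose from 266 to 530 CPM in WT at day 0 to 5860 to 12300 CPM at day 7. In bulk RNA a smaller share of cells of one type and less RNA per cell cannot be told apart.

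The WT course was examined first, as the exchange without a RAI1 mutation. In WT, 9 of the 10 genes passed the test between days 0 and 3 (5 higher, 4 lower) and 6 between days 3 and 7 (3 higher, 3 lower). Over all genes tested 60% passed in the first step (31.2% higher, 28.7% lower) and 46.2% in the second (23.3% higher, 22.9% lower), so such counts are common in this course. The median log2 difference of the 10 was 0.14 and 0.13 in the 2 steps, beside 0.07 and 0.01 over all genes. The neuronal paralogs ACTL6B, DPF3 and SS18L1 rose in both steps, whereas ACTL6A and PHF10 fell in both. DPF1, also a neuronal paralog, fell in the second step (-1.17 ± 0.24, adjusted p = 0.00116), and SS18 fell only in the first. All tests are edgeR's quasi-likelihood test with Benjamini-Hochberg adjustment over all genes tested, called at an adjusted p under 0.05. With limma on log2(TPM + 1) in its place, 46 of the 64 calls of named genes given here were lost. On that scale 14.7% and 26.7% of the genes called in the 2 WT steps were higher, against 52% and 50.4% by edgeR.

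ACTL6B, the neuronal actin-like subunit, stood at 0.11, 0.303, 0.0707 and 0.12 CPM in the 4 WT libraries of day 0 (3 to 13 counts each). On day 3 the values were 22.2, 16.5, 21.4 and 12.4 CPM, and on day 7 they were 27.9, 39.3, 48.0 and 60.7 CPM. No library of a later day overlapped one of an earlier day. The log2 difference was 6.85 ± 0.40 (SE; adjusted p = 6e-09) from day 0 to 3 and 1.28 ± 0.27 (adjusted p = 0.00135) from day 3 to 7. The first value rests on few counts at day 0 and so depends on the scale: it was 2.56 on log2(TPM + 1).

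ACTL6A, its progenitor counterpart, ran at 75.6, 69.1, 73.1 and 76.6 CPM on day 0. It stood at 49.5, 59.9, 40.7 and 44.7 CPM on day 3 and at 31.1, 32.2, 38.5 and 39.8 CPM on day 7. The 3 days did not overlap. The falls were small beside the rise of ACTL6B, at -0.60 ± 0.13 (adjusted p = 0.00148) and -0.46 ± 0.14 (adjusted p = 0.0121) on the log2 scale. When the fit carried a term for small structural RNA, the adjusted p was 0.0668 for the first step and 0.111 for the second.

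The per-length unit TPM allows paralogs to be set beside each other within a library. In WT, ACTL6B made up 0.303 ± 0.215% (SD, n = 4) of the summed ACTL6A and ACTL6B TPM at day 0, 30.8 ± 7.33% at day 3 and 58.2 ± 5.8% at day 7. In every WT library of day 7 ACTL6B was thus the more abundant of the pair (50.2 to 64%).

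Among the ATPases, SMARCA4 ranked first of the 10 by TPM in all 36 libraries. SMARCA2 rose between days 0 and 3, from 4.01, 3.1, 3.42 and 2.85 CPM to 11.3, 13, 12.6 and 25.3 CPM (log2 difference 2.21 ± 0.27, adjusted p = 8.04e-06). On log2(TPM + 1) this step came to 0.20 and was not called (adjusted p = 0.379, limma). By day 7 it stood at 14.6, 13.4, 21.5 and 11.3 CPM and did not differ from day 3 (-0.03 ± 0.26, adjusted p = 0.933). Its share of the ATPase pair in WT was 2.13 ± 0.154% at day 0, 7.46 ± 2.63% at day 3 and 6.6 ± 2.6% at day 7. SMARCA4 was lower on day 3 than on day 0 (263 ± 50.4 against 371 ± 7.93 CPM; -0.50 ± 0.19, adjusted p = 0.0334). That call was lost, with adjusted p up to 0.103, without any one of WT day 0 replicates 1, 2 and 3 or WT day 3 replicates 3 and 4. The covariate for small structural RNAs ended it as well, at a log2 difference of -0.07.

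The BAF45 set changed composition in WT. PHF10 fell from 71.5 to 80.6 CPM on day 0, to 28.4 to 43.8 on day 3 and 10.3 to 19.9 on day 7, by 1.22 ± 0.19 (adjusted p = 7.15e-05) and 1.26 ± 0.19 (adjusted p = 9.34e-05) on the log2 scale. DPF3, which in heart and muscle reads acetylated histones, rose from 0.22, 0.862, 0.141 and 0.21 CPM to 1.14, 1.75, 3.35 and 4.49 and then to 17.8, 31.5, 40.7 and 42.5 CPM. No library overlapped the next day's. Its differences were 2.84 ± 0.55 (adjusted p = 0.000447) and 3.64 ± 0.49 (adjusted p = 2.81e-05). The first rests on 6 to 37 counts per library at day 0 and came to 0.14 on log2(TPM + 1), where it was not called (adjusted p = 0.393, limma). DPF1 took another path in WT: 7.88 ± 0.661 CPM on day 0, 12.3 ± 1.73 on day 3 and 5.44 ± 2.0 on day 7. The later drop of -1.17 ± 0.24 passed (adjusted p = 0.00116). The earlier difference of 0.64 ± 0.24 (adjusted p = 0.0328) lost its call without any one of WT day 0 replicates 1, 2 and 3 or WT day 3 replicates 1 and 2 (adjusted p up to 0.0813), and its sign turned to -0.29 on log2(TPM + 1). DPF2 did not pass in either step (-0.09 ± 0.11 and -0.04 ± 0.11), whereas on log2(TPM + 1) its first step was called lower (-1.03, adjusted p = 0.00124, limma).

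By TPM share within the BAF45 set, PHF10 held 38.8 ± 2.76% in WT at day 0 and 9.21 ± 2.54% at day 7. DPF2 went from 54.4 ± 2.19% to 73.3 ± 2.09% and DPF3 from 0.18 ± 0.149% to 10.9 ± 2.69%. The largest share of the WT set on day 7 was therefore that of DPF2. SS18L1, a calcium-responsive coactivator, went from 19.9 ± 1.33 CPM through 25.8 ± 3.34 to 54.9 ± 3.95 CPM (0.37 ± 0.12, adjusted p = 0.0175, then 1.09 ± 0.12, adjusted p = 5.75e-06). Its first step turned to -0.66 on log2(TPM + 1) and lost its call without WT day 0 replicate 2 or WT day 3 replicate 2 (adjusted p up to 0.057). SS18 fell first (-0.77 ± 0.15, adjusted p = 0.000396) and then did not change by the test (0.29 ± 0.15, adjusted p = 0.118). SS18L1 made up 12.1 ± 0.799% of the pair at day 0 and 27.7 ± 0.961% at day 7, so SS18 remained the more abundant in every WT library.

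**Figure D1:**
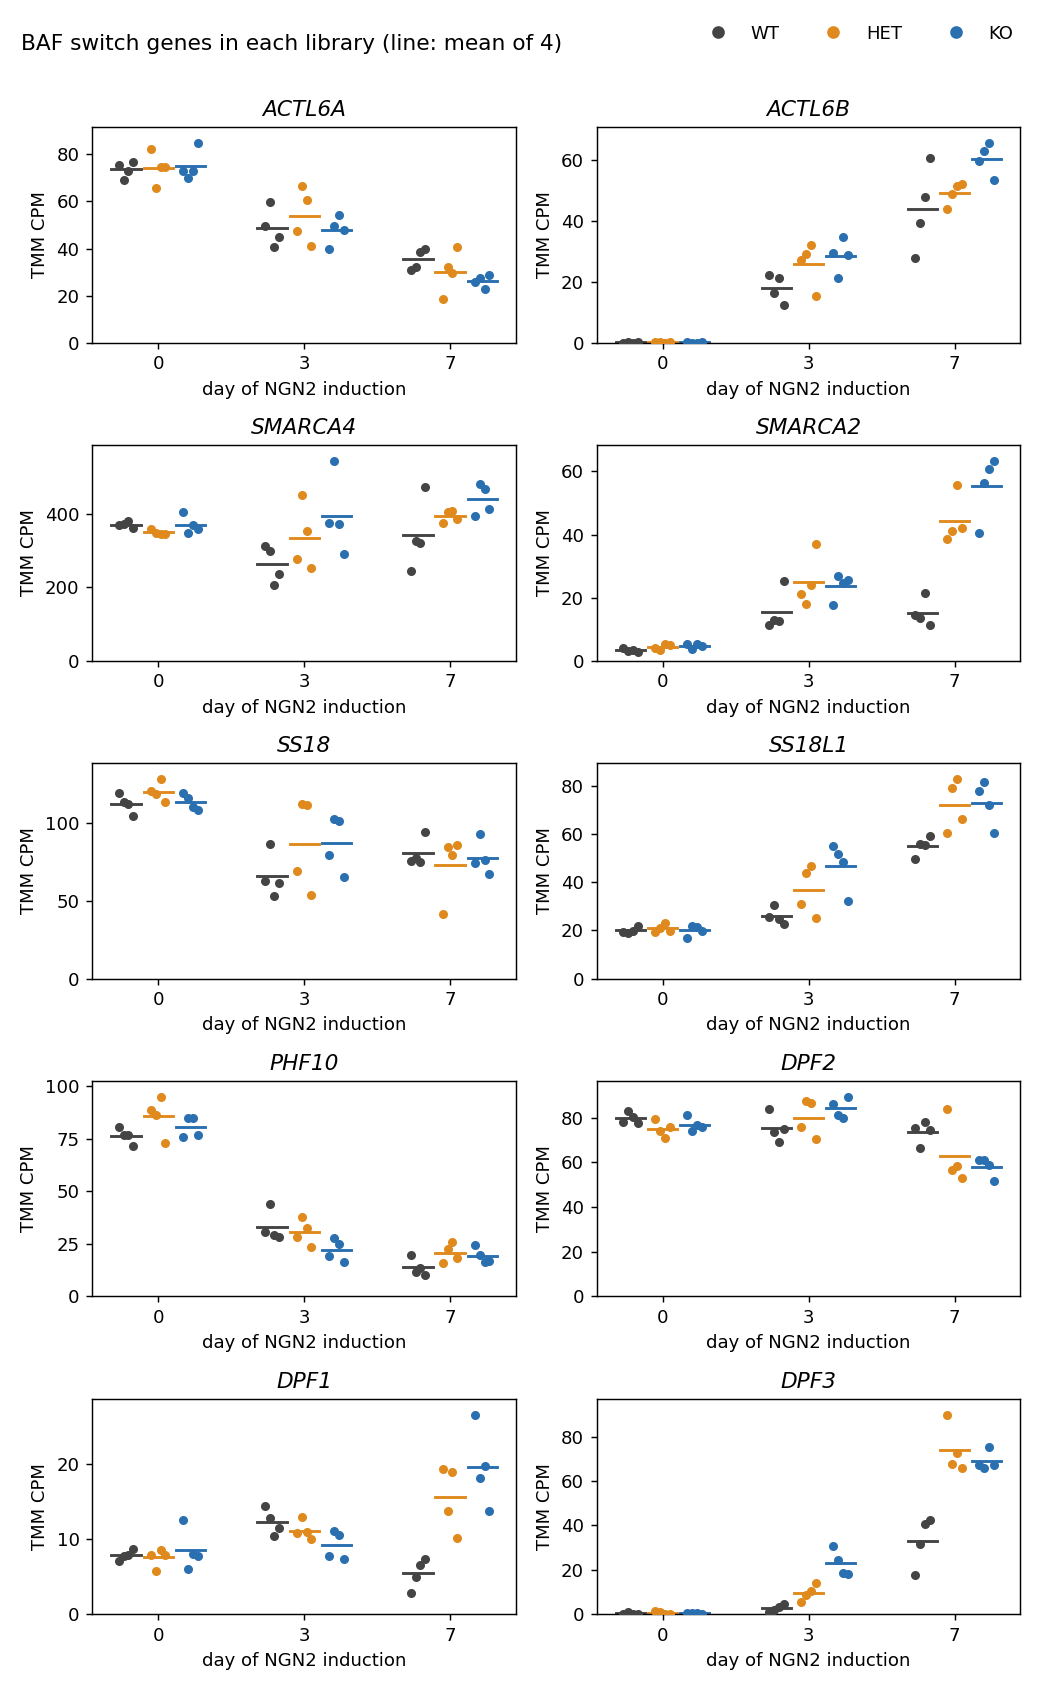
TMM-scaled CPM (y axis, linear, from 0) of the 10 BAF genes in each of the 36 libraries by day of NGN2 induction; points are libraries and lines are means of 4. On day 7 SMARCA2, DPF1, DPF3 and SS18L1 lay higher in every HET and KO library than in every WT library, while ACTL6B at day 0 was near 0 throughout.

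Mutant and WT cells of the same day were set against each other in a fit of that day's 12 libraries. KO and HET are read against the same WT libraries, so their values are given side by side and are not independent. Before induction no gene of the exchange separated the genotypes by the test. Of 9 genes tested at day 0 (ACTL6B was too low to test, at 0 to 0.303 CPM), edgeR called 0 in KO against WT (2.08% of all genes passed), 0 in HET against WT (1.63%) and 0 in KO against HET (0.856%). An unadjusted p under 0.05 was found for 1, 2 and 0 of them, beside 2544, 2372 and 1175 of all 20437 genes tested, in the same order. DESeq2 and limma also called 0 of the 9 in each comparison. SMARCA2 averaged 3.35 ± 0.501 CPM in WT cells, 4.45 ± 0.906 CPM in HET and 4.7 ± 0.83 CPM in KO, and the groups overlapped. Its share of the ATPase pair was 1.97 to 2.3% in WT, 1.64 to 3.48% in HET and 2.59 to 3.54% in KO. By that share, which was not tested, KO already lay above WT before induction. SMARCA4 was lower in every HET library (345 to 360 CPM) than in WT (361 to 380 CPM), without a call (adjusted p = 0.73, edgeR).

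On day 3 DPF3 and SS18L1 were higher in KO than in WT. They were 2 of 10 genes called, both higher, where 21.6% of all genes passed and 12.6% were higher, so the count is near the background. In HET 1 of 10 was called, higher, against 3.28% of all genes (2.52% higher). Of all genes called in KO, 58.6% were higher by edgeR, 51.4% by library size alone and 85.9% by limma on log2(TPM + 1), where the median of all genes stood at 0.20. The median log2 difference of the 10 was 0.47 in KO and 0.38 in HET, beside -0.05 and 0.02 over all genes. Groups did not overlap for 3 genes in KO (25% of all genes) and 1 in HET (8.72%).

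DPF3 showed the largest genotype difference of the 10 on day 3. Against 1.14, 1.75, 3.35 and 4.49 CPM in WT it stood at 5.74, 8.59, 10.3 and 14.2 CPM in HET and at 30.8, 24.4, 18.6 and 18.3 CPM in KO. All 3 groups were apart from each other. The difference from WT was 3.09 ± 0.41 (log2; adjusted p = 0.000176) in KO and 1.88 ± 0.39 (adjusted p = 0.0186) in HET. The HET call was lost without WT day 3 replicate 2 (adjusted p = 0.0669), which left 0 of 10 called. Between KO and HET the difference of 1.21 ± 0.38 did not pass (adjusted p = 0.0965).

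SS18L1 on day 3 ran at 25.7, 30.4, 24.6 and 22.5 CPM in WT, 30.8, 43.7, 46.5 and 25.1 in HET and 54.8, 51.8, 48.3 and 32 in KO. KO lay above WT in all 4 libraries, whereas HET overlapped both. The log2 difference from WT was 0.84 ± 0.22 (adjusted p = 0.0136) in KO and 0.51 ± 0.21 (adjusted p = 0.283) in HET. ACTL6B did not pass on day 3: its mean in WT was 18.1 ± 4.56 CPM, against 26.0 ± 7.27 CPM for HET and 28.7 ± 5.48 CPM for KO, with differences of 0.53 ± 0.25 (adjusted p = 0.354) and 0.65 ± 0.25 (adjusted p = 0.0805). PHF10 was lower in all 4 KO libraries than in WT (16.4 to 27.8 against 28.4 to 43.8 CPM), at -0.60 ± 0.21 (adjusted p = 0.0564).

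Libraries with the same replicate number deviated together in KO and WT, and in HET and WT, on day 3, so a paired fit with the replicate number as a block was also read. With the replicate block, 7 of 10 genes passed in KO against WT on day 3 (37.7% of all genes) and 2 of 10 in HET against WT (8.79%). ACTL6B (0.68 ± 0.19, adjusted p = 0.0135), SMARCA2 (0.66 ± 0.18, adjusted p = 0.0121) and SMARCA4 (0.54 ± 0.16, adjusted p = 0.0179) were then higher in KO. PHF10 (-0.60 ± 0.13, adjusted p = 0.00292) and DPF1 (-0.44 ± 0.16, adjusted p = 0.05 after rounding, just under the threshold) were lower, and DPF3 and SS18L1 kept their calls. In HET the paired fit added SMARCA2 (0.73 ± 0.18, adjusted p = 0.0256) to DPF3.

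Within pairs of paralogs on day 3, the ACTL6B share in WT was 30.8 ± 7.33% (SD, n = 4), against 36.7 ± 3.84% for HET and 42 ± 4.74% for KO. Each group overlapped with both others (24.5 to 38.9% in WT, 32.1 to 40.6% in HET and 35.3 to 46.4% in KO). DPF3 made up 0.985 ± 0.482% of the BAF45 set in WT, against 3.34 ± 1.66% for HET and 6.8 ± 1.47% for KO. PHF10 made up 23.4 ± 4.1%, 19.2 ± 2.05% and 14.4 ± 3.58%. The SMARCA2 share was 7.46 ± 2.63%, 7.92 ± 2.13% and 7.32 ± 2.8% in the same order, and the groups overlapped throughout.

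By day 7 the genes that separated the genotypes were SMARCA2, DPF1 and DPF3, in both HET and KO. In KO 4 of 10 passed, all higher, where 32.6% of all genes passed and 17% were higher. In HET 3 of 10 passed, all higher, where 14.4% of all genes passed and 8.31% were higher. On log2(TPM + 1) the median of all genes lay at 0.18 in KO and 0.46 in HET. The median log2 difference of the 10 was 0.43 in KO and 0.29 in HET, beside -0.04 and 0 over all genes. Groups did not overlap for 6 genes in KO (40% of all genes) and 4 in HET (14.9%). Without HET day 7 replicate 1, the library richest in small structural RNA, 6 of 10 passed in HET. The share of all genes that passed in that fit was not taken, so this count has no background beside it.

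SMARCA2, the alternative ATPase, stood at 14.6, 13.4, 21.5 and 11.3 CPM in WT on day 7. It stood at 38.5, 41.0, 55.6 and 42.2 CPM in HET and at 40.6, 56.4, 60.9 and 63.3 CPM in KO. Every mutant library exceeded every WT library, and HET and KO overlapped. The difference from WT was 1.54 ± 0.21 (log2; adjusted p = 0.000913) in HET and 1.87 ± 0.22 (adjusted p = 8.6e-05) in KO. SMARCA4 did not pass in either (0.20 ± 0.18 and 0.37 ± 0.18). SMARCA2 made up 6.6 ± 2.6% of the pair in WT (3.6 to 9.64%), against 14.1 ± 2.34% for HET (11.6 to 16.8%) and 16.2 ± 1.68% for KO (14.2 to 18.1%). SMARCA4 thus still supplied at least 81.9% of the summed ATPase TPM in every library of the series.

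DPF1, the neuronal BAF45b, ran at 2.85, 4.94, 6.6 and 7.36 CPM in WT on day 7. It ran at 19.4, 13.8, 18.9 and 10.2 CPM in HET and at 26.6, 18.1, 19.8 and 13.7 CPM in KO. WT did not overlap with either mutant. The difference was 1.51 ± 0.31 (adjusted p = 0.00656) in HET and 1.85 ± 0.31 (adjusted p = 0.000829) in KO. On day 3 the KO libraries had not been higher, at 9.2 ± 1.92 CPM against 12.3 ± 1.73 in WT.

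DPF3 on day 7 stood at 17.8, 31.5, 40.7 and 42.5 CPM in WT, at 90.0, 67.5, 72.5 and 65.9 in HET and at 67.2, 65.7, 75.5 and 67.4 in KO. Both mutants lay above WT in all 4 libraries and overlapped each other. The difference was 1.15 ± 0.22 (adjusted p = 0.0053) in HET and 1.06 ± 0.22 (adjusted p = 0.00341) in KO. Both calls were lost in a single fit over all 36 libraries. SS18L1 was also above WT in all 4 libraries of each mutant (60.2 to 82.8 CPM in HET and 60.3 to 81.7 in KO against 49.7 to 59.2). Its difference was 0.38 ± 0.14 (adjusted p = 0.0932) in HET and 0.41 ± 0.14 (adjusted p = 0.0442) in KO. The KO call did not survive leaving out any one of WT day 7 replicates 1, 2 and 3 or KO day 7 replicates 1, 2 and 3 (adjusted p up to 0.142). With a term for small structural RNA, SMARCA2, DPF1 and DPF3 stayed called in both mutants (1.84, 1.84 and 1.1 in KO, 1.51, 1.51 and 1.19 in HET), and the KO call of SS18L1 was lost (0.25, adjusted p = 0.154).

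**Figure D2:**
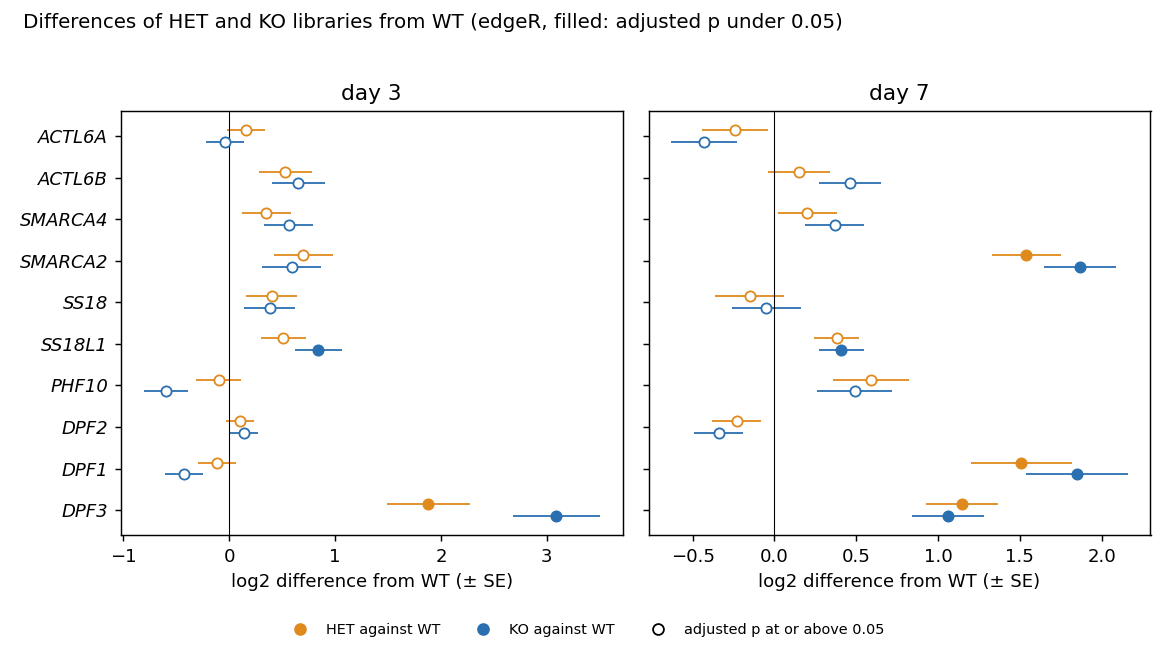
Log2 difference from WT (x axis, ± SE) of the 10 genes on days 3 and 7 for HET and KO, from edgeR's fit of each day; filled points have an adjusted p under 0.05. SMARCA2, DPF1 and DPF3 are filled for both mutants on day 7, whereas on day 3 only DPF3 is filled for both.

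The actin-like pair did not pass on day 7. ACTL6B ran at 27.9 to 60.7 CPM in WT, 44.0 to 52.1 in HET and 53.5 to 65.7 in KO (0.15 ± 0.19, adjusted p = 0.649, and 0.46 ± 0.19, adjusted p = 0.0851). ACTL6A was lower in all 4 KO libraries (22.7 to 28.6 CPM) than in WT (31.1 to 39.8 CPM), at -0.43 ± 0.20 (adjusted p = 0.114). It passed in the fits on all 36 libraries and on the 8 libraries compared, with an adjusted p as low as 0.0148. The ACTL6B share, which joins both genes, was 50.2, 58.5, 60.0 and 64.0% in WT, 67.8, 63.1, 67.5 and 60.8% in HET and 72.7, 73.4, 77.3 and 68.5% in KO. KO did not overlap with WT or HET. These shares are a description with no test.

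The BAF45 set differed most in makeup on day 7. DPF2 held 73.3 ± 2.09% of it in WT (SD, n = 4), against 53.7 ± 4.46% for HET and 50.2 ± 3.78% for KO. DPF1 held 6.63 ± 1.97%, 17.6 ± 2.9% and 22.6 ± 5.16%, and DPF3 held 10.9 ± 2.69%, 18 ± 2.36% and 17 ± 2.28%. PHF10 held 9.21 ± 2.54%, 10.7 ± 2.83% and 10.1 ± 1.01%, with overlap. DPF2 itself was below WT in all 4 KO libraries (51.7 to 61 against 66.3 to 78.2 CPM), at -0.34 ± 0.15 (adjusted p = 0.103). It too passed in the fits on all 36 libraries and on the 8 libraries compared (adjusted p as low as 0.0176). SS18L1 held 27.7 ± 0.961% of its pair in WT, against 38 ± 4.42% for HET and 34.4 ± 2.19% for KO, and neither mutant overlapped with WT.

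**Figure D3:**
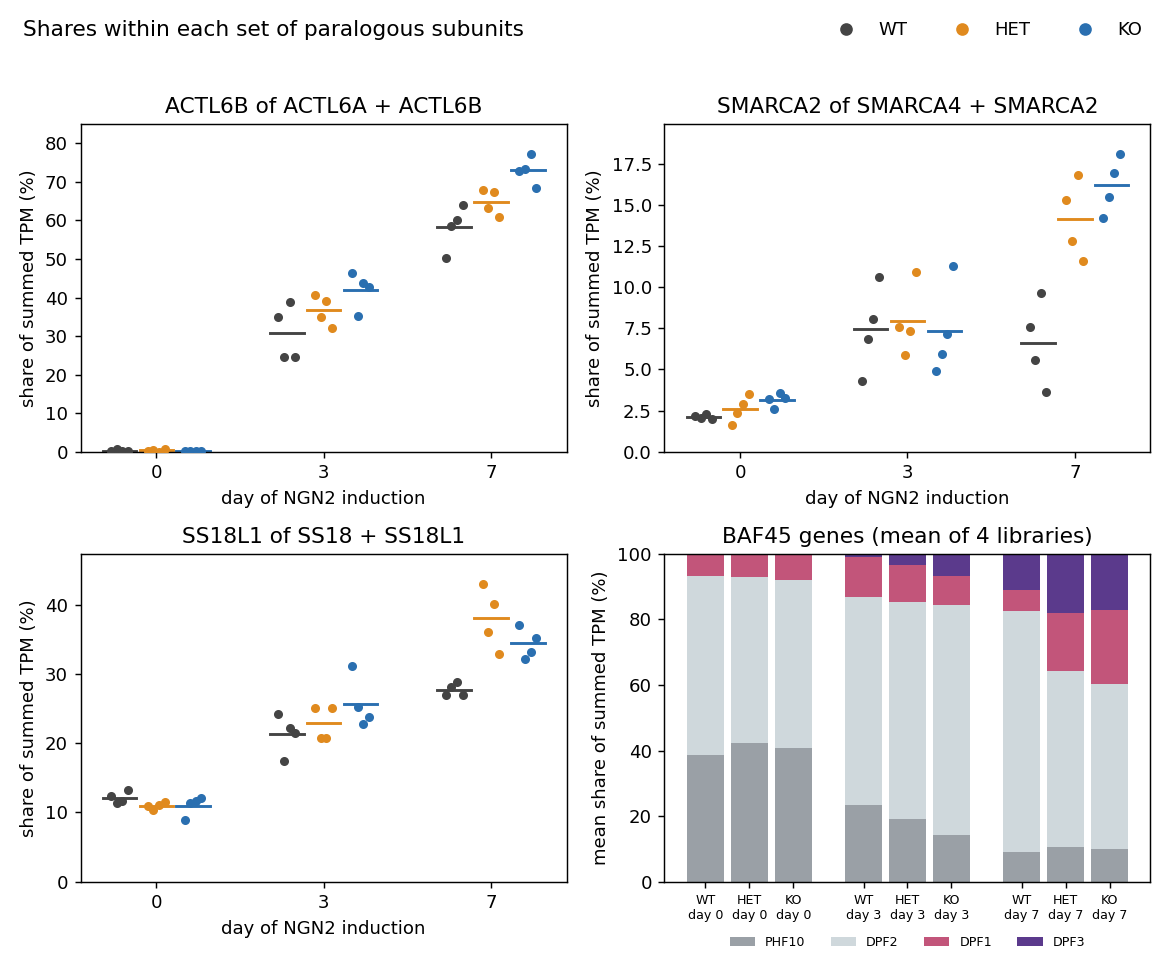
Share of summed TPM within each set of paralogs (y axes, %, from 0) by genotype and day; points are libraries and lines means of 4 in the first 3 panels, and bars are means of 4 in the BAF45 panel. The ACTL6B share in KO on day 7 (68.5 to 77.3%) lies above that in WT (50.2 to 64%), and DPF2 fills less of the BAF45 bar in both mutants than in WT.

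KO and HET were also compared directly. Of the 10 genes, edgeR called 0 on day 3 (4.35% of all genes passed) and 0 on day 7 (1.4%). An unadjusted p under 0.05 was found for 2 and 0 of them, beside 3901 of 21563 and 3008 of 21714 over all genes. DESeq2 called 1 on day 3 and 0 on day 7, and limma on log2(TPM + 1) called 0 on both. On day 7 SMARCA2 differed by 0.33 ± 0.21 (adjusted p = 0.523), DPF1 by 0.34 ± 0.30 (adjusted p = 0.665) and ACTL6B by 0.31 ± 0.19 (adjusted p = 0.516), each higher in KO. ACTL6B was higher in all 4 KO libraries than in all 4 HET libraries.

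A difference of differences over all 36 libraries asked whether a mutant followed another course than WT. Between days 0 and 3, SS18L1 (0.86 ± 0.23, adjusted p = 0.0174) and DPF3 (2.7 ± 0.77, adjusted p = 0.0241) rose more in KO than in WT, 2 of 10 where 8.55% of all genes passed and 5.37% in this direction. In HET 0 of 10 passed (0.271% of all genes), and 0 passed by DESeq2 or limma. An unadjusted p under 0.05 was found for 0 of them, beside 1819 of 24764 over all genes. The KO calls rest on single libraries. DPF3 lost its call without WT day 0 replicate 2, KO day 0 replicate 4, WT day 3 replicate 1 or KO day 3 replicate 1 (adjusted p up to 0.25). SS18L1 lost its call without KO day 0 replicate 1 or KO day 3 replicate 1 (adjusted p up to 0.0623), and without the latter 0 of the 10 passed.

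Between days 3 and 7, 5 of 10 courses differed between KO and WT (18.5% of all genes), 3 with the higher change in KO (7.6% of all genes) and 2 with the lower (10.9%). The mean of DPF1 went from 9.2 to 19.6 CPM in KO against 12.3 to 5.44 CPM in WT (difference 2.26 ± 0.35, adjusted p = 1.74e-05). That of SMARCA2 went from 23.7 to 55.3 CPM in KO against 15.5 to 15.2 CPM in WT (1.26 ± 0.34, adjusted p = 0.00742). The drop of PHF10 was smaller in KO than in WT (1.07 ± 0.27, adjusted p = 0.00485), from 22.1 ± 5.21 to 19.4 ± 3.71 CPM against 33.0 ± 7.3 to 13.8 ± 4.22. DPF3 had a smaller log2 change in KO, from 23 to 68.9 CPM, than in WT, from 2.68 to 33.1 CPM (-2.05 ± 0.62, adjusted p = 0.0174; adjusted p = 0.0527 without WT day 3 replicate 1). DPF2 moved down relative to WT (-0.50 ± 0.16, adjusted p = 0.0239). That call was lost without any one of WT day 3 replicates 2 and 3, KO day 3 replicate 1 or KO day 7 replicate 4 (adjusted p up to 0.0824). In HET 1 of 10 passed, DPF1 at 1.65 ± 0.35 (adjusted p = 0.00342), where 4.74% of all genes did and 2.06% in this direction. It was 2 of 10 without HET day 3 replicate 4, WT day 7 replicate 1 or HET day 7 replicate 1, with no share of all genes taken for those fits.

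Markers of cell state also differed between the genotypes, though mutant ranges overlapped with WT for some lists and days. On day 7 the summed level of 6 dividing cell markers ran from 32 to 212 CPM in WT, from 10.8 to 25.3 in HET and from 11.9 to 15 in KO, and all 6 exceeded a mean of 1 CPM in WT against 5 in HET and 4 in KO. On day 3 the dividing cell markers summed to 1130 to 2250 CPM in WT, against 1360 to 1920 for HET and 416 to 1180 for KO. On day 3 the 8 neuron markers summed to 1360 to 1650 CPM in WT, against 1970 to 4600 for HET and 5040 to 8270 for KO. On day 7 they summed to 5860 to 12300, 12300 to 15700 and 13500 to 17400 CPM. The 6 neural progenitor markers summed on day 7 to 780 to 875 CPM in WT, against 547 to 1080 for HET and 453 to 533 for KO.

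Other lineages were checked in the same way. On day 3 the 6 glial markers summed to 13.3 to 29.1 CPM in WT, against 8.89 to 35 for HET and 66.3 to 132 for KO. PDGFRA, a receptor also made by other progenitors, held most of the KO sum (64.4 ± 17.1 CPM), and AQP4 and S100B were at or near 0. The 6 pluripotent cell markers summed on day 7 to 50.5 to 61.4 CPM in WT, against 73.1 to 145 for HET and 229 to 307 for KO. LIN28A held most of that sum in HET and KO (means of 102 and 248 CPM). NANOG and TDGF1 were at or near 0 on day 7. The 6 mesenchymal markers summed to 22.3 to 33.1, 3.43 to 28.9 and 2.11 to 3.45 CPM in WT, HET and KO on day 7. Of the 6 glial markers, GFAP, AQP4 and S100B were under 1 CPM on average at day 7 in all 3 genotypes, and most of the sum of 37.4 to 199 CPM came from OLIG2. The part of any of these marker lists in the differences of the BAF genes was not tested.

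Among 12 tested genes that regulate the exchange, REST and PTBP1 were lower and MIR124-2HG was higher in both mutants by day 7. REST, the repressor of neuronal genes, fell in WT from 115 ± 8.57 CPM through 58.5 ± 8.65 to 12.8 ± 4.59 CPM. On day 3 it stood at 32.7 ± 7.29 CPM in HET and 15.7 ± 5.85 in KO, and on day 7 at 4.67 ± 1.15 and 3.37 ± 0.471 (SD, n = 4). Against WT, REST was lower in KO by -1.92 ± 0.25 on day 3 (adjusted p = 0.000154) and -1.92 ± 0.28 on day 7 (adjusted p = 0.000344). In HET the day 3 difference of -0.82 ± 0.24 did not pass (adjusted p = 0.0966), and that of day 7 was -1.46 ± 0.27 (adjusted p = 0.00457). KO was also below HET on day 3 (-1.1 ± 0.25, adjusted p = 0.0246), a call lost without any one of HET day 3 replicates 1 and 4 or KO day 3 replicates 1 and 3 (adjusted p up to 0.0811). CTDSPL, a phosphatase that works with REST, was lower in KO on day 3 (7.64 ± 2.59 against 18 ± 2.49 CPM; -1.26 ± 0.24, adjusted p = 0.00262).

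MIR124-2HG, a host transcript of miR-124, stood at day 0 at 4.14 ± 1.2 CPM in WT, 6.77 ± 4.31 in HET and 10.4 ± 2.59 in KO. Every KO library of day 0 already lay above every WT library, without a call (1.36 ± 0.37, adjusted p = 0.0989). On day 3 MIR124-2HG stood at 6.18 ± 1.73 CPM in WT, against 19.6 ± 9.15 for HET and 70.8 ± 31.7 for KO. The difference was 1.68 ± 0.39 (adjusted p = 0.0297) in HET and 3.51 ± 0.41 (adjusted p = 7.4e-05) in KO. The HET call was lost without any one of the 4 WT libraries or HET day 3 replicates 1, 2 and 3 (adjusted p up to 0.109). KO was also above HET on day 3 (1.83 ± 0.38, adjusted p = 0.0182), a call lost without any one of HET day 3 replicates 1 and 2 or KO day 3 replicate 1 (adjusted p up to 0.0609). By day 7 it had reached 90.6 ± 9.9 CPM in WT, against 174 ± 19.3 for HET (0.94 ± 0.15, adjusted p = 0.00195) and 183 ± 27 for KO (1.02 ± 0.15, adjusted p = 4e-04). MIR124-1HG, another host transcript of miR-124, was higher in HET on day 3 (1.13 ± 0.26, adjusted p = 0.0292), a call lost without any one of WT day 3 replicates 2, 3 and 4 or HET day 3 replicates 1 and 3 (adjusted p up to 0.0925). It was lower in KO than in HET on day 7 (61.2 ± 10.8 against 117 ± 13.6 CPM; -0.92 ± 0.20, adjusted p = 0.0409). That call was lost without any one of HET day 7 replicates 1, 2 and 4 or KO day 7 replicates 1, 2 and 3 (adjusted p up to 0.16). MIR9-3HG, a host transcript of miR-9, was higher in KO on day 3 and lower on day 7 (10.8 ± 2.14 against 5.15 ± 0.823 CPM, then 2.28 ± 0.312 against 6.27 ± 3.13). The day 7 call (adjusted p = 0.0352) was lost without WT day 7 replicate 2 or any 1 of the 4 KO libraries (adjusted p up to 0.126). PTBP1, a splicing repressor that miR-124 targets, stood on day 7 at 120 ± 9.5 CPM in WT, against 69 ± 19.9 for HET (-0.81 ± 0.19, adjusted p = 0.0126) and 48.7 ± 6.23 for KO (-1.3 ± 0.19, adjusted p = 0.000365). The HET difference of PTBP1 turned to 0.10 on log2(TPM + 1).

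Counts over the list of 12 tested regulators follow. In KO against WT 5 passed on day 3 (2 higher, 3 lower) and 9 on day 7 (2 higher, 7 lower), and in HET 2 passed on day 3 (both higher) and 4 on day 7 (1 higher, 3 lower). Over all genes 21.6% and 32.6% passed in KO on the 2 days, and 3.28% and 14.4% in HET. The median log2 difference on day 7 was -0.49 in KO and -0.38 in HET, beside -0.04 and 0 over all genes. LINC00461, a host transcript of miR-9, was also lower in KO on both days (-1.17 ± 0.32, adjusted p = 0.0191, and -1.76 ± 0.55, adjusted p = 0.0278). The day 3 call was lost without any one of WT day 3 replicate 3 or KO day 3 replicates 2 and 3, and the day 7 call without any one of WT day 7 replicates 1 and 3 or KO day 7 replicates 2, 3 and 4 (adjusted p up to 0.083). In HET it was lower on day 7 (-1.93 ± 0.56, adjusted p = 0.0352), a call lost without any one of WT day 7 replicates 1, 2 and 3 or HET day 7 replicates 2, 3 and 4 (adjusted p up to 0.1).

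**Figure D4:**
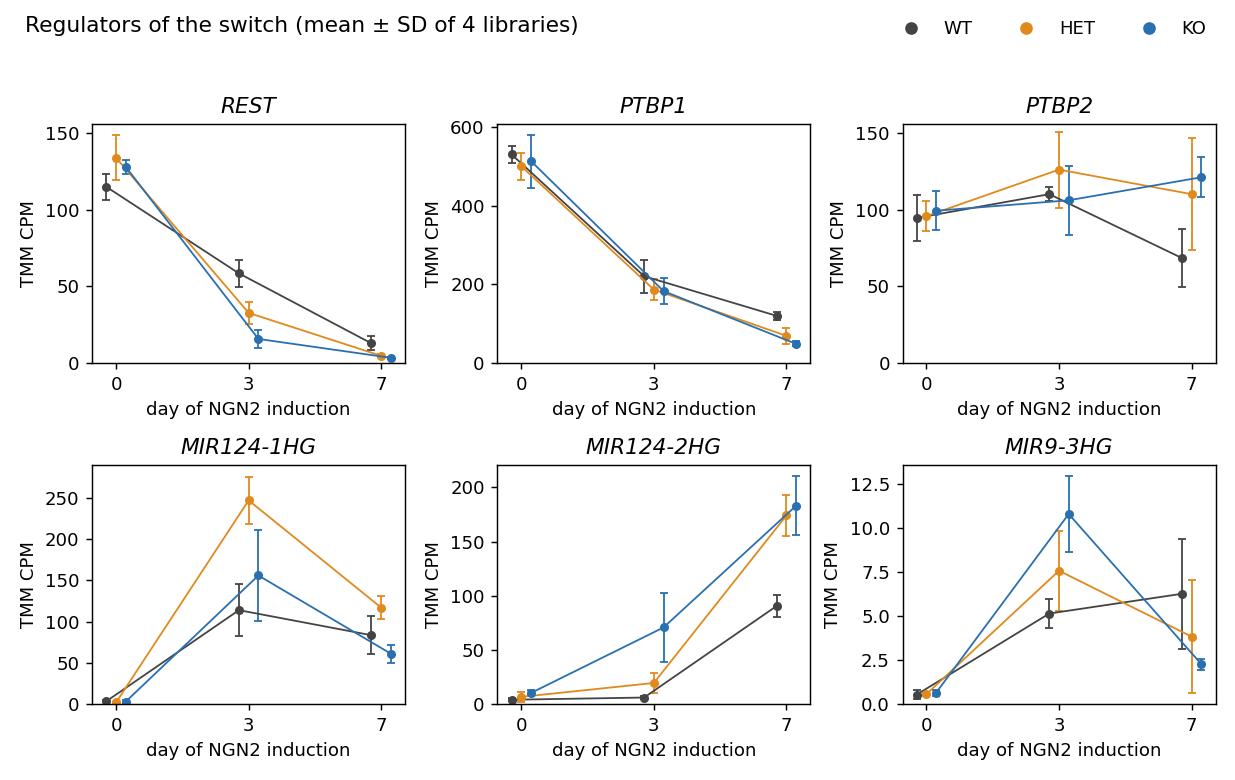
TMM-scaled CPM (y axes, linear, from 0; mean ± SD of 4 libraries) of 6 regulators of the exchange by day and genotype. On day 3 the mean of REST lies at 58.5 CPM for WT, 32.7 for HET and 15.7 for KO, and that of MIR124-2HG at 6.18, 19.6 and 70.8.

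Other BAF subunits were read the same way. Of 21, edgeR called 3 in KO against WT on day 3 (1 higher, 2 lower) and 6 on day 7 (3 higher, 3 lower), and in HET 3 on day 7 (all lower). These counts are near or below the background of 21.6% and 32.6% of all genes in KO and 14.4% in HET on day 7. BCL11A and BCL11B, neuronal transcription factors that can join BAF, were lower on day 7 in KO (-2.96 ± 0.46, adjusted p = 0.000516, and -1.62 ± 0.56, adjusted p = 0.0395). Both were lower in HET as well (-3.42 ± 0.47, adjusted p = 0.000837, and -4.49 ± 0.67, adjusted p = 0.00134). BCL11A stood at 17.9 ± 10.1 CPM in WT, against 1.67 ± 0.512 for HET and 2.29 ± 1.49 for KO, while BCL11B was low throughout (3.02 ± 1.83, 0.128 ± 0.101 and 0.981 ± 0.653 CPM). The KO call of BCL11B was lost without any one of WT day 7 replicates 1 and 2 or KO day 7 replicates 2, 3 and 4 (adjusted p up to 0.116). SMARCD2, one of 3 interchangeable BAF60 subunits, was lower on day 7 in KO (-1.44 ± 0.20, adjusted p = 0.000275) and HET (-0.99 ± 0.20, adjusted p = 0.00617). At day 0 SMARCD2 already lay lower in every HET (44.5 to 61.2 CPM) and KO library (41.3 to 67.9) than in WT (68.2 to 72), without a call. SMARCD3, its paralog in neurons and muscle, was lower in KO on day 3 (5.02 ± 0.636 against 9.56 ± 1.09 CPM in WT) and higher in KO on day 7 (1.33 ± 0.33, adjusted p = 0.00896).

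In the WT course 14 of the 21 passed between days 0 and 3 (3 higher, 11 lower) and 10 between days 3 and 7 (7 higher, 3 lower), near the 60% and 46.2% of all genes. The largest difference among them was that of BCL11B in both steps (-2.76 ± 0.48 and 3.24 ± 0.48). For comparison, of 14 ATPases of other remodellers 5 passed in KO on day 7 (4 higher, 1 lower) and 1 in HET (32.6% and 14.4% of all genes), with CHD5, a neuronal CHD protein, leading in both (4.06 ± 0.58, adjusted p = 0.000307, and 2.50 ± 0.55, adjusted p = 0.00991).

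The genes whose pattern was most like that of ACTL6B across the 36 libraries, among 12371 others with a mean of at least 5 CPM, were SCN3B (Pearson r = 0.994), MANEAL (0.99), CHGB (0.99), SNAP25 (0.99) and EBF1 (0.989). For ACTL6A they were SEPTIN2 (0.976), BCCIP (0.968), CPSF3 (0.963), CCT6A (0.962) and PRKD3 (0.96). These correlations of log2(CPM + 1) describe libraries that share day and genotype.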

How the data were processed

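The members and gene lists were chosen with earlier results of these data known. Per the labels' protocols, rRNA-depleted total RNA was sequenced as 151 bp paired-end reads. The submitters' processing notes name cutadapt 4.8, STAR 2.7.8a, RSEM 1.3.3 and the build GRCh38. Annotation release and strand setting were not given in the sources used here. The authors deposited expected counts, which were rounded to whole numbers, and TPM. Of 62714 rows, 4 reporter sequences (at most 0.0171% of a library) were left out.

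Counts were scaled by TMM, filtered with filterByExpr and tested over all genes with edgeR 4.0.16 in R 4.3.3: 12 libraries of a day, 12 WT libraries for the course, 36 for differences of courses. SE is the log2 difference over the root of F. Also tried were scaling by library size or by DESeq2's factors, the tools DESeq2 1.42.0 and limma 3.58.1 (the latter on log2(TPM + 1)), no filter, other sets of libraries, a replicate block, a term for small structural RNA, and leaving out each replicate. Scripts were tested on simulated counts.

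Same-numbered libraries correlated in their deviations from group means, over 0.1 in all 4 pairs, for KO and WT at day 0 (0.265 to 0.649), KO and WT at day 3 (0.142 to 0.555) and HET and WT at day 3 (0.168 to 0.772). The pairing comes from these data and not from the labels, which give all libraries 1 batch.

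Named were all 10 members and at most 3 called genes per other list and comparison, those with the largest log2 differences. PTBP1, the first step of REST in WT, MIR9-3HG and LINC00461 on day 3 in KO, and MIR124-2HG and SMARCD3 on day 7 in KO, were chosen outside that rule, after their values were seen. TPM depends on what else fills a library, so the main results used it only for shares and ranks within a library. The alternative tests with limma did compare TPM between libraries, so their values carry that dependence. Of the deposited gene identifiers 92.9% matched GENCODE 29. Figures were drawn with matplotlib 3.10.9.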

Additional observations from a re-analysis of the deposited data

Results flagged for a closer look

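In 5 of 90 groups of 4 libraries, 1 library lay far from the other 3 (Dixon's test at 95%), where chance flags about 4.5. SMARCA2 was at 25.3 CPM in WT day 3 replicate 4 (others 11.3 to 13), DPF3 at 0.862 in WT day 0 replicate 2 (others 0.141 to 0.22) and PHF10 at 43.8 in WT day 3 replicate 2 (others 28.4 to 30.5). SS18 was at 94 CPM in WT day 7 replicate 4 (others 74.4 to 77.2) and at 41.4 in HET day 7 replicate 1 (others 79.5 to 85.8). The last library held 27.5% small structural RNA.

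In 8 tests of the 10 genes the course over time differed between a mutant and WT. From day 0 to 3 in KO these were SS18L1 at 0.86 (log2, adjusted p = 0.0174) and DPF3 at 2.7 (adjusted p = 0.0241). From day 3 to 7 in KO they were DPF1 at 2.26 (adjusted p = 1.74e-05), SMARCA2 at 1.26 (adjusted p = 0.00742), PHF10 at 1.07 (adjusted p = 0.00485), DPF2 at -0.5 (adjusted p = 0.0239) and DPF3 at -2.05 (adjusted p = 0.0174). In HET DPF1 differed by 1.65 from day 3 to 7 (adjusted p = 0.00342). Each adjusted p is from edgeR over all genes. From day 0 to 3 the course of 8.55% of all genes passed in KO and 0.271% in HET. From day 3 to 7 it was 18.5% in KO and 4.74% in HET. With limma on log2(TPM + 1) 0 of the 10 genes passed in each of these courses. The calls of SS18L1, DPF2 and DPF3 were lost when certain single libraries were left out, as given above.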

How the results depend on the processing

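Of 3265 alternative values for single genes, 3073 kept their side of the threshold, 148 lost a call, 41 gained one and 3 reversed. A reversal was counted only where the main or the alternative value was called. Uncalled values that changed sign thus stand among the 3073, as for ACTL6A in HET on day 7 (-0.43 to 0.69 over the settings). Of 279 alternative counts, 253 stayed within 1.5 times. The reversals came from limma on log2(TPM + 1): in WT from day 0 to 3 for DPF1 (-0.29) and SS18L1 (-0.66), where the median of all genes moved to -0.38, and in HET on day 7 for PTBP1 (0.101). The same setting left 1 of 10 called in KO and 0 in HET against WT on day 3, 2 in KO and 0 in HET on day 7, and 0 in each of the courses KO 0 to 3, KO 3 to 7 and HET 3 to 7. Over all genes it called 816 in KO and 39 in HET of 21563 on day 3, and 1007 and 271 of 21714 on day 7. In those courses it called 321, 942 and 109 of 24764. With the replicate block the day 3 counts were 7 for KO against WT, 2 for HET against WT and 2 for KO against HET. Over all genes the block called 8138, 1895 and 2739 of 21563 in the same order. Same-numbered KO and HET libraries of day 3 correlated at -0.0622 to 0.669 in their deviations. That was over 0.1 in 3 of 4 pairs, short of the rule of all 4. The block ended the call of SS18L1 in KO on day 7, where numbers did not pair KO with WT by that rule. The small structural RNA covariate gave 5 for KO on day 3 (5113 of 21563 over all genes) and 2 for the HET course from day 3 to 7 (1464 of 24764). One fit of 36 libraries gave 4 for KO on day 3 (6651 of 24764 over all genes), and 8 libraries gave 0 for HET on day 3 (493 of 20624). DESeq2 called 1 between KO and HET on day 3 (1850 of 21563 over all genes), and library size alone left 1 for the KO course from day 0 to 3 (1949 of 24764). Leaving out 1 library gave 0 to 1 for HET on day 3, 3 to 6 for HET on day 7, 0 to 2 for the KO course from day 0 to 3 and 1 to 2 for the HET course from day 3 to 7. Shares of all genes were not taken for the fits that left out a library. Where no alternative's construction shows it, the cause was not tested. Depth limits ACTL6B and DPF3 at day 0, with as few as 0 and 2 counts in a library.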
